A study of Mus musculus with 6 samples.

Results

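Potassium channel genes were compared between the immature and the adult mouse cerebellum. The set holds every gene whose symbol starts with Kcn, the shared prefix of potassium channel subunits and their named partners, apart from Kcnq1ot1, and was taken by name alone. Of 17858 genes that have an array row of a single symbol, 88 met this rule, in 20 subfamilies. They include 2 transcripts read from the strand opposite a channel gene, Kcnd3os and Kcnmb4os1. Whole cerebellum of C57BL/6 mice, with no treatment or transgene recorded, gave 3 arrays at P7 (7 days after birth) and 3 at 6wk (6 weeks of age), 6 in all. Each array is an Affymetrix mouse exon array, and the series description ties the comparison to changes in 5-hydroxymethylcytosine, an oxidised form of methylated cytosine. Neither sex nor the number of animals behind an array is recorded, so p-values measure the spread between these arrays, which may be partly technical.

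Potassium channels let potassium ions leave or enter cells and so set the resting potential, shape the action potential and fix how fast a neuron can fire. Voltage-gated pores open on depolarisation, inward rectifiers pass current best near rest, tandem-pore channels carry a steady leak, and other pores open on intracellular calcium or sodium. Many pores work with accessory subunits that change their gating or place them on the axon, the soma or the dendrite. In the cerebellum the first postnatal weeks bring the birth and migration of granule neurons and the growth of Purkinje cells, and the adult neurons fire at high rates.

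Values are log2 expression levels as deposited, so a difference of 1 is a doubling. Array medians lay between 7.82 and 7.97. The P7 arrays were less alike (r = 0.952 to 0.985 across rows, which are not independent replicates) than the 6wk arrays (r = 0.984 to 0.989). Markers of granule neurons, the main cells of this tissue, averaged 10.36, 7.23 and 9.71 in P7 replicates 1, 2 and 3 and 10.87 to 11.11 at 6wk, over 7 measured genes of 8 listed. Purkinje cell markers averaged 9.53, 7.98 and 9.05 at P7 and 10.15 to 10.38 at 6wk (5 of 8). Markers of midbrain and brainstem monoamine neurons, cells that lie outside the cerebellum, averaged 6.66, 9.70 and 9.12 at P7 and 6.83 to 7.58 at 6wk (5 of 6). P7 replicate 2 was thus lowest for granule neuron and Purkinje cell markers and highest for monoamine neuron markers, with P7 replicate 3 between the others. Markers of GABAergic interneurons averaged 9.51, 9.88 and 9.83 at P7 and 9.30 to 9.78 at 6wk (6 of 7), but were split. P7 replicate 2 was above P7 replicate 1 in 4 of these 6 genes. Kit (9.99, 9.30 and 9.64) and Slc6a5 (9.61, 8.47 and 9.88) were instead lowest in P7 replicate 2 among the P7 arrays. Array values have no true zero, so no marker can be called absent. Their part in the results below was not tested. Leaving out P7 replicate 2 moved the difference by over 1.5 times in 43 of the 88 potassium channel genes. The value without it is given for those whose array values are shown. Among the genes that passed with all arrays, 0 moved so far. A gene passes when its difference is large beside its spread, so this 0 partly follows from passing.

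Between P7 and 6wk, 26 of the 88 potassium channel genes passed the test, limma's moderated test with p-values adjusted over all 17858 genes and a threshold of 0.05. At 6wk 16 of them were higher, 18.2% of the set, where 8.26% of all genes were higher. Another 10 were lower, 11.4% of the set, against 13.4% of all genes. In either direction 29.5% of the set and 21.7% of all genes passed. The median log2 difference was -0.12 over the set and -0.05 over all genes, and 9 of the rises and 6 of the falls were at least 2-fold in the fitted values. The P7 and 6wk values did not overlap for 44 of the 88 genes, among them all 26 called ones, and for 42.1% of all genes. Rises made up 61.5% of the calls in the set, and 74.1% when array medians were set equal. Over all genes the same shares were 38.1% and 55.2%. In whole tissue, a change in the share of a cell type and a change in RNA per cell cannot be told apart.

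**Figure D1:**
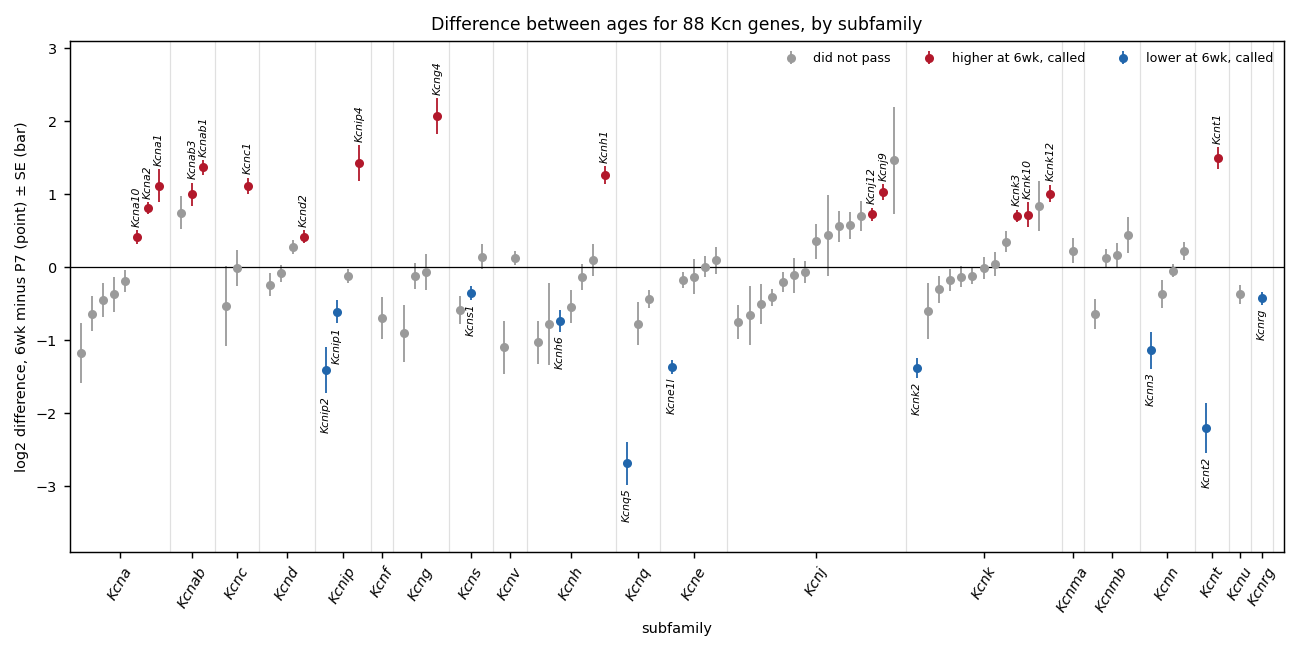
Log2 difference between 6wk and P7 for each of the 88 Kcn genes (points, bars are the SE of the limma difference), grouped by subfamily along the horizontal axis. Red points were higher and blue points lower at 6wk at an adjusted p under 0.05, and grey points did not pass. Called rises and falls stand side by side in Kcnh, Kcnip, Kcnk and Kcnt.

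Within the set, Kcng4, a modifier subunit that forms no channel alone, had the largest called rise, a log2 difference of 2.07. Kcnq5, a pore of the slow M-type current, had the largest called fall, -2.69. Kcnt1 and Kcnt2, the only members of the sodium-activated subfamily, differed in opposite directions (1.49 and -2.20). The 250 bases before the annotated start of Kcng4 (chr8:119635681-119635930, minus strand), of the Kcnq5 transcripts (chr1:21961943-21962192 and chr1:21962651-21962900, minus strand) and of Kcnt2 (chr1:140245468-140245717, plus strand) are shown from RefSeq, build GRCm38.p6, because they lie ahead of the genes that moved most. Kcnt1 is not in the promoter table used. Each runs 5′ to 3′ on the strand of the gene, and capitals mark CG, the dinucleotide at which most methylated and hydroxymethylated cytosine sits.
Kcng4: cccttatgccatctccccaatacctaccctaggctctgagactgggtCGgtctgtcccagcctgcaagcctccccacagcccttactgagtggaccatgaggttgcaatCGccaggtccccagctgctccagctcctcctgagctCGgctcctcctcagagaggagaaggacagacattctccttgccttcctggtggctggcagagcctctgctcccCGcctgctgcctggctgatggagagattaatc
Kcnq5, downstream start: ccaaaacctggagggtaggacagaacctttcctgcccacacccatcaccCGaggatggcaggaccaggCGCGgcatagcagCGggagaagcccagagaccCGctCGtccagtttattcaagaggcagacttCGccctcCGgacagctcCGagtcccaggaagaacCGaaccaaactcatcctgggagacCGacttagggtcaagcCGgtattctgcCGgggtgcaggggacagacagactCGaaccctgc
Kcnq5, upstream start: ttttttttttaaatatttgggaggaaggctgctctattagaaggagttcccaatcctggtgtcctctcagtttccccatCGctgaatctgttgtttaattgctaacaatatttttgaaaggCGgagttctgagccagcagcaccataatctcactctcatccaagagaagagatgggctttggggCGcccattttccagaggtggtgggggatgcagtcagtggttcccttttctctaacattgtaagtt
Kcnt2: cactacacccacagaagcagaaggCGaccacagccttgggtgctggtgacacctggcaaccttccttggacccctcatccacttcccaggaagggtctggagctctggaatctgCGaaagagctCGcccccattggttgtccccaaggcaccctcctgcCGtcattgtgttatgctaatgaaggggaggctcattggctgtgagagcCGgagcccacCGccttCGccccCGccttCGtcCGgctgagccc

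These stretches hold 4 CG in Kcng4, 14 and 3 in Kcnq5 and 10 in Kcnt2, counted on the strand shown, since CG reads the same on both. Among the genes tested, 14056 have such a window, with 17426 windows in all, and 95.2% of the windows hold at least 1 CG, with a median of 12. The 68 matched potassium channel genes have 93 windows with a median of 7. For the 12 matched genes that were higher at 6wk the median over 16 windows was 5.5, and for the 10 lower genes it was 10 over 16 windows. The 46 matched genes that did not pass had a median of 7 over 61 windows. Taking only the window with most CG for each gene, the medians were 11 for the higher genes and 13 for the lower genes. By that count they were 9.5 for the genes that did not pass, 10 for the set and 13 for all genes. The difference between higher and lower genes thus depends on how windows are counted. No methylation was measured in these files, and the counts describe the reference sequence.

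The low-threshold pores of the Kcna subfamily, which open early on depolarisation and keep axons from firing repeatedly, rose in 3 of 8 members and fell in 0. Kcna1, the pore mutated in human episodic ataxia, read 10.44, 9.53 and 10.06 in P7 replicates 1 to 3 and 11.05, 11.21 and 11.11 in 6wk replicates 1 to 3. All 6wk arrays lay above all P7 arrays, and the log2 difference was 1.11 (SE 0.22, limma adjusted p = 0.0165). Leaving out P7 replicate 3 or a 6wk array ended that call (adjusted p up to 0.0659), and without P7 replicate 2 the difference was 0.87 (adjusted p = 0.00643). Kcna2, which joins Kcna1 in channels beside the nodes of myelinated axons and in the basket cell endings around Purkinje cells, read 10.50, 10.58 and 10.47 at P7 and 11.30, 11.35 and 11.34 at 6wk. It varied little within either age and rose by 0.81 (SE 0.08, adjusted p = 0.00163). Kcna10 rose by 0.41 at low levels (6.36 to 6.53 at P7, 6.75 to 6.93 at 6wk) and did not pass when P7 replicate 3 or a 6wk array was left out (adjusted p up to 0.106).

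The other 5 Kcna genes, Kcna3, Kcna4, Kcna5, Kcna6 and Kcna7, did not pass, and their differences were all below 0, from -1.18 to -0.19. Kcna4, a fast-inactivating pore, read 6.89, 8.46 and 7.54 at P7 and 5.98, 6.80 and 6.57 at 6wk (-1.18, adjusted p = 0.091). Without P7 replicate 2 the difference was -0.76 (adjusted p = 0.109). Kcna6 read 8.51, 9.46 and 9.09 at P7 and 8.58, 8.74 and 8.60 at 6wk. Its groups overlapped, since P7 replicate 1 lay below every 6wk array. Its difference was -0.37 with all arrays, -0.63 (adjusted p = 0.0242) without P7 replicate 1 and -0.15 (adjusted p = 0.578) without P7 replicate 2.

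The Kcnab genes encode cytoplasmic beta subunits that bind Kcna pores, speed their inactivation and help bring them to the axon. Their P7 and 6wk values did not overlap in any of the 3 genes, and 2 of them passed. Kcnab1 read 9.48, 9.22 and 9.23 at P7 and 10.72, 10.64 and 10.66 at 6wk, a rise of 1.36 (SE 0.10, adjusted p = 0.000761). Kcnab3 read 8.48, 8.49 and 8.44 at P7 and 9.11, 9.70 and 9.59 at 6wk, a rise of 1.00 (SE 0.16, adjusted p = 0.0077). Both calls held in each of the 6 fits that left out an array. For Kcnab2 the values were 9.35, 9.90 and 9.68 at P7 and 9.96, 10.62 and 10.59 at 6wk, with 6wk replicate 1 only just above the highest P7 array (0.75, adjusted p = 0.0584). Kcnab2 passed without P7 replicate 2 (0.87, adjusted p = 0.0369) and without 6wk replicate 1 (0.96, adjusted p = 0.0324).

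**Figure D2:**
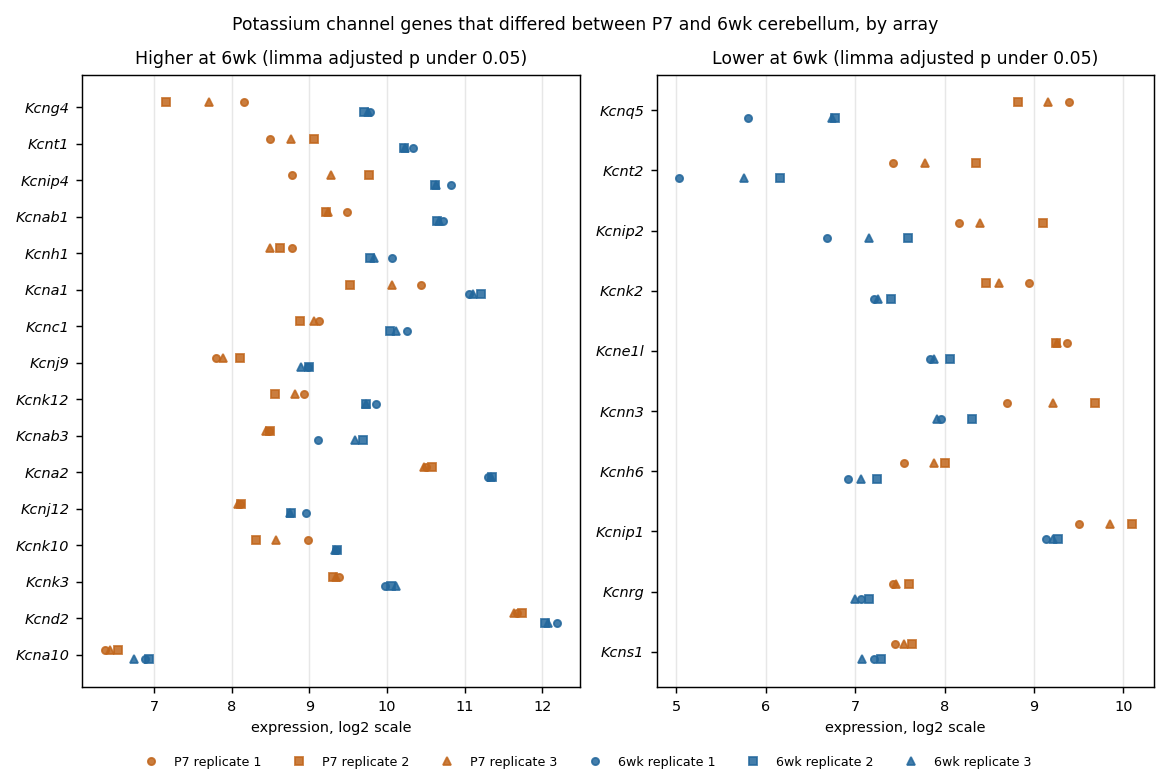
Log2 expression of the 26 called potassium channel genes in each array, with P7 in orange and 6wk in blue and a marker shape for each replicate. In every gene the P7 and 6wk points do not overlap, and the P7 points of Kcna1, Kcng4, Kcnip4 and Kcnn3 spread more widely than their 6wk points.

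Kcnc genes encode high-threshold pores that close quickly and allow fast firing, and 1 of the 3 measured passed. Kcnc1, abundant in granule neurons, read 9.12, 8.87 and 9.06 at P7 and 10.26, 10.04 and 10.11 at 6wk, a rise of 1.11 (SE 0.11, adjusted p = 0.00159) that held with any array left out. Kcnc2 read 7.39, 9.39 and 8.43 at P7 and 7.12, 8.39 and 8.09 at 6wk. Its spread within each age exceeded the difference between ages (-0.54, SE 0.55, adjusted p = 0.542), and without P7 replicate 2 the difference was -0.04. Kcnc4 had nearly equal means at both ages, 10.30 ± 0.51 (SD, n = 3) at P7 and 10.28 ± 0.06 (SD, n = 3) at 6wk, but differed by 0.21 (adjusted p = 0.485) without P7 replicate 2.

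Kcnd pores carry the A-type current, which delays and spaces spikes, and the Kcnip genes encode calcium-binding proteins that bind these pores and raise their surface level. Kcnd2, the granule neuron member, read 11.67, 11.74 and 11.63 at P7 and 12.19, 12.03 and 12.07 at 6wk. The rise was small, 0.42 (SE 0.09, adjusted p = 0.0181), and it did not pass when P7 replicate 3 or a 6wk array was dropped (adjusted p up to 0.0927). Kcnd3 read 9.27, 9.46 and 9.27 at P7 and 9.68, 9.54 and 9.61 at 6wk and did not pass (0.28, adjusted p = 0.0837), but did without P7 replicate 2 (0.34, adjusted p = 0.0355). Kcnd1 differed by -0.24 and the opposite-strand transcript Kcnd3os by -0.08, and neither passed.

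Among the 4 Kcnip genes 1 rose and 2 fell. Kcnip4 read 8.77, 9.77 and 9.27 at P7 and 10.83, 10.62 and 10.63 at 6wk. Its rise was 1.42 (SE 0.24, adjusted p = 0.00973) with all arrays and 1.67 (adjusted p = 0.0017) without P7 replicate 2, the highest of the P7 arrays. Kcnip2 went the other way, with 8.16, 9.10 and 8.39 at P7 and 6.68, 7.59 and 7.16 at 6wk, and fell by 1.41 on the log2 scale (SE 0.31, adjusted p = 0.0228). Kcnip1 read 9.50 to 10.09 at P7 and 9.13 to 9.27 at 6wk and fell by 0.61 (adjusted p = 0.0374). Both falls were lost without P7 replicate 3, 6wk replicate 1 or 6wk replicate 3, and that of Kcnip1 also without 6wk replicate 2 (adjusted p up to 0.0785 for Kcnip2 and 0.125 for Kcnip1). Kcnip1 also lost its call after centring on array medians (-0.51, adjusted p = 0.0682) and after a further quantile normalization (-0.52, adjusted p = 0.0808). Kcnip3, also known as a calcium-dependent transcriptional repressor, read 11.09 to 11.39 over all 6 arrays and did not pass.

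Kcnf, Kcng, Kcns and Kcnv genes encode modifier subunits that are silent alone and join other voltage-gated pores. Of the 10 measured modifiers 1 rose and 1 fell. Kcng4 read 8.16, 7.15 and 7.71 at P7 and 9.78, 9.71 and 9.75 at 6wk, so that the lowest 6wk value stood 1.54 above the highest P7 value. Its rise of 2.07 (SE 0.24, adjusted p = 0.00276) was 1.81 (adjusted p = 0.000941) without P7 replicate 2, and it was called with any array left out. The 6wk arrays agreed closely, whereas the P7 arrays spanned 1.01. Kcns1 fell by 0.35 (adjusted p = 0.0484), a call lost on leaving out any array but P7 replicate 1 (adjusted p up to 0.172) and after either further scaling of the arrays (-0.25 when centred, -0.26 with quantiles). Kcnv1 and Kcns2 differed by -1.10 and -0.59 without passing, and both passed without P7 replicate 2, at -0.68 (adjusted p = 0.0403) and -0.36 (adjusted p = 0.031). The other 6, Kcnf1, Kcng1, Kcng2, Kcng3, Kcns3 and Kcnv2, lay between -0.91 and 0.14 and did not pass.

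The Kcnh genes encode the ether-a-go-go pores, in 3 branches named EAG, ERG and ELK, and 1 of 7 rose and 1 fell. Kcnh1, an EAG pore, read 8.78, 8.62 and 8.50 at P7 and 10.06, 9.79 and 9.83 at 6wk, a rise of 1.26 (SE 0.12, adjusted p = 0.00152) seen with any array left out. Kcnh6, an ERG pore, had means of 7.81 ± 0.24 (SD, n = 3 arrays) at P7 and 7.07 ± 0.16 at 6wk and fell (limma difference -0.73, SE 0.15, adjusted p = 0.0178), and leaving out P7 replicate 3, 6wk replicate 1 or 6wk replicate 3 ended the call (adjusted p up to 0.0779). Kcnh7, also of the ERG branch, read 8.18, 8.88 and 8.50 at P7 and 6.90, 7.90 and 7.66 at 6wk (-1.03, adjusted p = 0.0516). Kcnh2, the ERG pore best known from the heart, read 8.79, 9.47 and 9.22 at P7 and 8.94, 9.50 and 9.33 at 6wk. Replicate 1 was the lowest at both ages, and the groups overlapped (0.10, SE 0.22, adjusted p = 0.793), with a difference of 0.25 without P7 replicate 2. Kcnh5, Kcnh4 and Kcnh3 differed by -0.78, -0.54 and -0.14 and did not pass.

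Kcnq pores carry the M-type current, a slow brake on repeated firing, and all 3 measured members were lower at 6wk in every array than in any P7 array. Only Kcnq5 passed. It read 9.39, 8.83 and 9.16 at P7 and 5.80, 6.77 and 6.74 at 6wk, a log2 difference of -2.69 (SE 0.29, adjusted p = 0.00227). Between the highest 6wk array and the lowest P7 array the gap was -2.06, and the difference ran from -2.85 to -2.37 as single arrays were left out, always called. Its 6wk mean of 6.44 was under the lowest first quartile of any array, 6.89. Kcnq3, which pairs with other Kcnq pores in neurons, read 9.03, 10.16 and 9.67 at P7 and 8.53, 8.99 and 9.02 at 6wk (-0.77, adjusted p = 0.112), with 6wk replicate 3 only just below P7 replicate 1. Without P7 replicate 1 it passed (-1.07, adjusted p = 0.0193), and without P7 replicate 2 it did not (-0.50, adjusted p = 0.172). Kcnq1, the heart and ear pore, read 7.15 to 7.28 at P7 and 6.54 to 6.92 at 6wk (-0.43, adjusted p = 0.0501).

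Kcne genes encode small single-span subunits that join Kcnq and other pores, and 1 of 5 fell. Kcne1l, X-linked and also called Kcne5, read 9.37, 9.24 and 9.26 at P7 and 7.83, 8.06 and 7.88 at 6wk. It fell by 1.36 (SE 0.10, adjusted p = 0.00072), was called with any array left out, and had a gap of -1.18 between the highest 6wk and the lowest P7 value. Kcne1, Kcne2, Kcne3 and Kcne4 differed by -0.18 to 0.09 and did not pass. Kcnrg, a soluble protein that hinders the assembly of Kcna channels, is not a channel and fell by 0.43 (adjusted p = 0.0214), a call that dropping P7 replicate 3 or a 6wk array ended (adjusted p up to 0.0959) and after centring (-0.33, adjusted p = 0.0542).

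Inward rectifiers form the largest subfamily, and 2 of its 15 members rose while 0 fell. A trio of them, Kcnj3, Kcnj6 and Kcnj9, build the channels that G proteins open when GABA-B and similar receptors are active. Kcnj9 read 7.79, 8.10 and 7.89 at P7 and 8.98, 8.996 and 8.90 at 6wk, a rise of 1.03 (SE 0.10, adjusted p = 0.00188) that held with any array left out. Kcnj3 read 10.11, 9.27 and 9.80 at P7 and 10.22, 10.30 and 10.33 at 6wk, with P7 replicate 1 close to the 6wk arrays (0.56, adjusted p = 0.108). Without that array it passed (0.75, adjusted p = 0.0258), and without P7 replicate 2 it did not (0.33, adjusted p = 0.0954). Kcnj6 read 9.42, 7.74 and 8.99 at P7 and 8.01, 8.14 and 8.001 at 6wk. P7 replicates 1 and 3 were above, and P7 replicate 2 below, every 6wk array. With all arrays Kcnj6 did not pass (-0.66, adjusted p = 0.295), and without P7 replicate 2 it was lower at 6wk by a log2 difference of -1.15 (adjusted p = 0.00327).

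Kcnj12, a strong rectifier that holds the resting potential, read 8.11, 8.12 and 8.08 at P7 and 8.95, 8.77 and 8.75 at 6wk. It rose by 0.72 (SE 0.09, adjusted p = 0.00343), with any array left out too. Kcnj2, its close relative, differed in the opposite direction without passing (-0.75, adjusted p = 0.0635). Kcnj10, the rectifier through which astrocytes and Bergmann glia take up potassium, read 9.57, 9.86 and 9.88 at P7 and 9.97, 10.48 and 10.57 at 6wk (0.57, adjusted p = 0.072). Its 6wk replicate 1 lay closest to the P7 arrays, and without it Kcnj10 passed (0.76, adjusted p = 0.0298). Kcnj16, which joins Kcnj10 in glia, read 7.56, 8.55 and 8.27 at P7 and 8.39 to 8.54 at 6wk and did not pass (0.35, adjusted p = 0.354, and 0.56, adjusted p = 0.0981, without P7 replicate 2).

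Kcnj11 and Kcnj8 are the pores of ATP-sensitive channels, the former in neurons and the latter in pericytes. They differed by 0.70 and -0.42 (adjusted p = 0.0532 for each), with groups that did not overlap, and Kcnj11 passed without P7 replicate 2 (0.48, adjusted p = 0.0285). Their sulfonylurea receptor partners passed in the same directions, as Abcc8 rose by 0.83 (adjusted p = 0.0115) and Abcc9 fell by 0.49 (adjusted p = 0.0106). Endothelial and pericyte markers, a list that includes Abcc9, were lower in 5 of 7 and higher in 1. Over all genes 13.4% were lower and 8.26% higher. The markers averaged 8.30 to 8.34 at P7 and 8.08 to 8.19 at 6wk. Among them the pericyte genes Rgs5 and Pdgfrb fell by 0.56 (adjusted p = 0.00664) and 0.38 (adjusted p = 0.0352), and their part in the lower values of Kcnj8 and Abcc9 was not tested. Kcnj13, a rectifier of the choroid plexus, read 8.80, 5.69 and 7.72 at P7 and 9.07, 8.91 and 8.60 at 6wk, and did not pass (1.46, SE 0.73, adjusted p = 0.207). Without P7 replicate 2 the difference was 0.60 (adjusted p = 0.226). Choroid plexus markers, 5 of 5 measured, averaged 8.92, 6.84 and 8.03 in the same P7 arrays and 8.40 to 8.91 at 6wk. Kcnj1, Kcnj4, Kcnj5, Kcnj14 and Kcnj15 lay between -0.50 and 0.44 and did not pass.

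Tandem-pore channels of the Kcnk subfamily set the leak conductance, and 3 of 13 rose and 1 fell. Kcnk3, an acid-sensitive leak pore of granule neurons, read 9.38, 9.31 and 9.34 at P7 and 9.98, 10.06 and 10.12 at 6wk, a rise of 0.71 (SE 0.08, adjusted p = 0.00268). Kcnk12, of a halothane-inhibited pair, read 8.93, 8.55 and 8.82 at P7 and 9.86, 9.73 and 9.72 at 6wk, a rise of 1.00 (SE 0.12, adjusted p = 0.00297). Both were called with any array left out.

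The mechanically gated relatives Kcnk2 and Kcnk10 moved apart. Kcnk2 fell by 1.38 (SE 0.14, adjusted p = 0.00188), from 8.94, 8.46 and 8.61 at P7 to 7.21, 7.40 and 7.26 at 6wk, in every fit with an array left out. Kcnk10 rose by 0.72 (adjusted p = 0.0294), from 8.99, 8.31 and 8.58 at P7 to 9.32 to 9.35 at 6wk. Dropping P7 replicate 3 or a 6wk array ended its call (adjusted p up to 0.106). Its rise was 0.56 (adjusted p = 0.0284) without P7 replicate 2, its lowest P7 array, and 0.35 with P7 replicate 1 as the only P7 array. Kcnk1, a weakly conducting pore, read 10.82, 9.36 and 10.27 at P7 and 11.03, 10.96 and 10.98 at 6wk. The P7 spread was wide and the gene did not pass (0.84, adjusted p = 0.134), but did without P7 replicate 1 (1.17, adjusted p = 0.0257). Without P7 replicate 2 the difference was 0.44 (adjusted p = 0.102). The other 8 members, Kcnk4, Kcnk5, Kcnk6, Kcnk7, Kcnk13, Kcnk15, Kcnk16 and Kcnk18, lay between -0.60 and 0.35, and their P7 and 6wk values overlapped.

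Calcium-activated channels end bursts of spikes and shape the pauses between them, and 1 of 9 measured genes passed. Kcnma1, the large-conductance pore, read 9.09, 9.74 and 9.40 at P7 and 9.73, 9.60 and 9.57 at 6wk, and did not pass (0.22, adjusted p = 0.403). Without P7 replicate 2 it differed by 0.39 (adjusted p = 0.0656). Kcnmb4, the main beta subunit of neurons, read 9.29, 8.38 and 9.09 at P7 and 9.56, 9.34 and 9.19 at 6wk (0.44, adjusted p = 0.248, and 0.17, adjusted p = 0.407, without P7 replicate 2). Kcnmb2 differed by -0.64 (adjusted p = 0.0716), Kcnmb1 by 0.16 and the opposite-strand transcript Kcnmb4os1 by 0.12.

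Kcnn3, a small-conductance pore that monoamine neurons also express, read 8.70, 9.68 and 9.22 at P7 and 7.96, 8.31 and 7.92 at 6wk. It fell by 1.14 (SE 0.25, adjusted p = 0.0239), and leaving out P7 replicate 3 or a 6wk array ended the call (adjusted p up to 0.0906). Its P7 order, lowest in replicate 1 and highest in replicate 2, was that of the monoamine neuron markers (6.66, 9.70 and 9.12). The same order held in 55 of the 88 potassium channel genes, so it was not particular to Kcnn3. Its share over all genes was not computed. In either direction, P7 replicate 3 lay between the other P7 arrays in 83.0% of the set and 67.6% of all genes. The part of the monoamine neuron markers in the fall of Kcnn3 was not tested. Without P7 replicate 2 the difference was -0.89 (adjusted p = 0.0204), and with P7 replicate 1 alone, an alternative added after seeing the data, it was -0.63 (adjusted p = 0.0783, a fit that takes its spread from 6wk only). Kcnn2, the small-conductance pore of Purkinje cells, read 8.61, 8.94 and 8.64 at P7 and 8.82, 9.05 and 8.99 at 6wk and did not pass (0.22, adjusted p = 0.255). Kcnn1 and Kcnn4 differed by -0.37 and -0.05, also without passing.

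The sodium-activated pair differed most plainly by direction. Kcnt1, also called Slack, read 8.49, 9.06 and 8.76 at P7 and 10.34, 10.21 and 10.23 at 6wk, a rise of 1.49 (SE 0.15, adjusted p = 0.00188). Kcnt2, also called Slick, read 7.43, 8.35 and 7.79 at P7 and 5.03, 6.16 and 5.76 at 6wk, a log2 difference of -2.20 (SE 0.34, adjusted p = 0.00703). Within P7 both genes were lowest in replicate 1 and highest in replicate 2, an order shared by 55 of 88 potassium channel genes. Both were called with any array left out, but Kcnt2 was not with P7 replicate 1 alone at P7 (-1.78, adjusted p = 0.0553). The 6wk mean of Kcnt2, 5.65, was also under that lowest first quartile of 6.89. Kcnu1, the related pH-gated pore best known from sperm, read 7.01 ± 0.21 (SD, n = 3) at P7 and 6.63 ± 0.12 (SD, n = 3) at 6wk and did not pass (-0.37, adjusted p = 0.0939).

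When the 6 arrays were left out in turn, 12 of the 16 rises passed every time, namely Kcna2, Kcnab1, Kcnab3, Kcnc1, Kcng4, Kcnh1, Kcnip4, Kcnj9, Kcnj12, Kcnk3, Kcnk12 and Kcnt1. Of the 10 falls, 4 were, namely Kcne1l, Kcnk2, Kcnq5 and Kcnt2. The number of falls moved from 10 to 26 without P7 replicate 1, and to 4, 5, 6 and 4 without P7 replicate 3 and 6wk replicates 1, 2 and 3. Over all genes the share that fell was 16.3% without P7 replicate 1, and 5.4%, 6.15%, 7.02% and 5.61% in the other fits in the same order. Without P7 replicate 2 there were 19 rises and 12 falls, of which 16 and 9 were the same genes as with all arrays, against 9.56% and 17.2% of all genes. With P7 replicate 1 alone at P7 there were 17 rises and 4 falls, of which 13 and 3 were the same genes, against 7.87% and 14.7% of all genes. In that fit the set's median turned from -0.12 to 0.11, while the median of all genes was -0.03, and no spread was measured at P7. The differences of Kcnh6, Kcnip1, Kcnip2, Kcnrg and Kcns1 were then smaller in size, at -0.47, -0.30, -1.02, -0.35 and -0.25. With all arrays they were -0.73, -0.61, -1.41, -0.43 and -0.35. Those of Kcne1l, Kcnk2 and Kcnq5 were larger in size than with all arrays, at -1.45, -1.65 and -2.95.

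**Figure D3:**
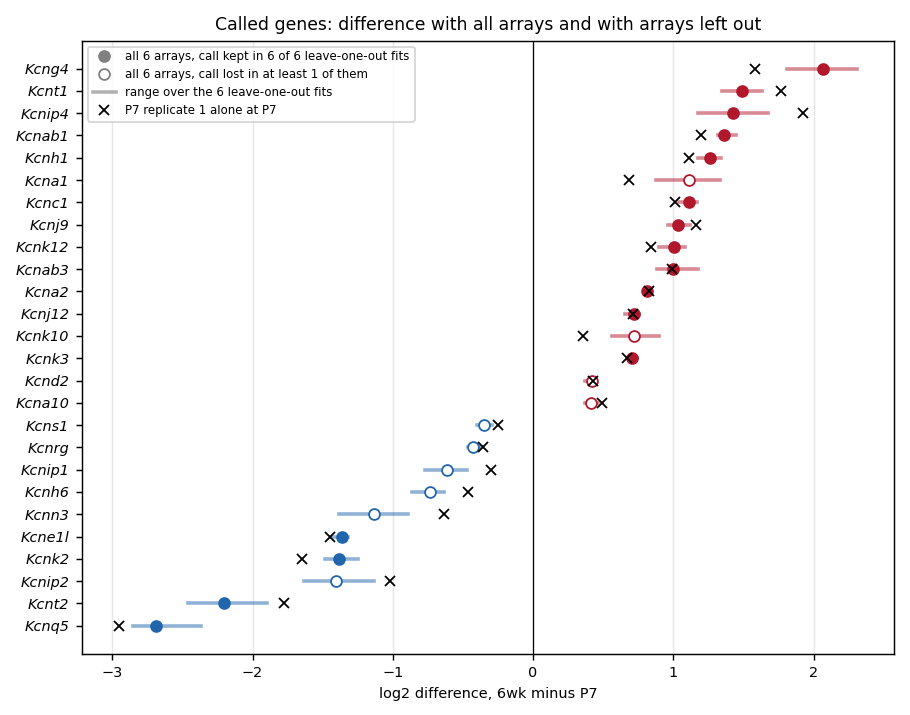
Log2 difference between 6wk and P7 for the 26 called genes, with all arrays (circles), over the 6 fits that leave out an array (bars from the lowest to the highest value) and with P7 replicate 1 alone at P7 (crosses). Filled circles kept their call in 6 of 6 such fits and open circles lost it in at least 1, and no bar or cross lies on the other side of 0 from its circle.

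The potassium channel genes varied more among P7 arrays than among 6wk arrays, with a median range of 0.57 at P7 and 0.24 at 6wk. The range exceeded 1 in 15 genes at P7 and in 4 at 6wk. Over all rows, too, the P7 arrays were less alike than the 6wk arrays (lowest r 0.952 against 0.984). P7 replicate 2 was above P7 replicate 1 in 65 of the 88 genes (73.9%), with a median difference of 0.37, against 51.8% of all genes and a median of 0.02. It was over 2-fold higher in 11 of them, among them Kcnc2, Kcnk4, Kcng3, Kcna4 and Kcnv1, and over 2-fold lower in 4, Kcnj13, Kcnj6, Kcnk1 and Kcng4. P7 replicate 3 lay between the other P7 arrays in 73 of the 88 genes, and in 67.6% of all genes. Among 6wk arrays the set's median shifts from replicate 1 were 0.09 and 0.08, against 0.03 and 0.002 over all genes. Ranges and 2-fold counts were not computed over all genes, so the set was not compared on them.

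**Figure D4:**
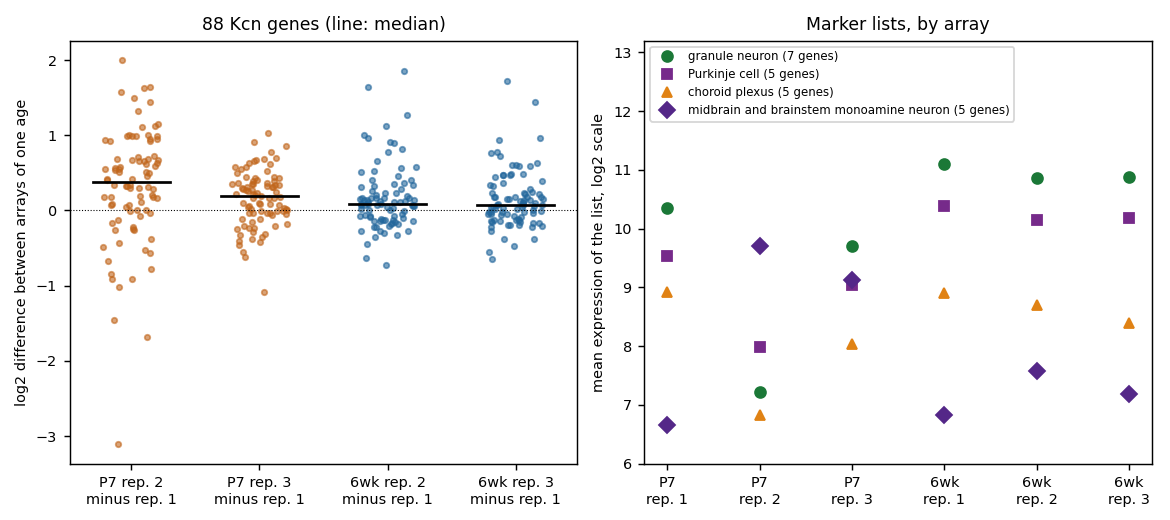
Left, log2 difference of P7 replicates 2 and 3 from P7 replicate 1 and of 6wk replicates 2 and 3 from 6wk replicate 1, with a point for each of the 88 Kcn genes and a line at the median. Right, mean log2 expression of 4 marker lists in each array, where P7 replicate 2 is lowest for granule neuron, Purkinje cell and choroid plexus markers and highest for monoamine neuron markers.

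Partners of these channels whose symbols do not start with Kcn were taken from a list. Of 9 genes listed as partners of voltage-gated or large-conductance potassium channels, 3 rose and 1 fell. Over all genes 8.26% rose and 13.4% fell. Lrrc38, an auxiliary subunit of large-conductance channels, rose by 0.98 (adjusted p = 0.00129), Amigo1, an adhesion protein that binds voltage-gated pores, by 0.48 (adjusted p = 0.0184) and Lgi1, a secreted protein that slows inactivation of Kcna channels, by 0.59 (adjusted p = 0.0192). The 1 fall was that of Cnih2, which is known chiefly as an AMPA receptor partner (-1.23, adjusted p = 0.00394). Dpp6 and Dpp10, which speed Kcnd channels, differed by 0.35 and 0.57 and did not pass (adjusted p = 0.0848 and 0.101).

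Of 13 measured genes that place channels at and beside the node of Ranvier, 3 rose and 0 fell. For this list and those below, the shares over all genes were again 8.26% and 13.4%. The scaffold Dlg1 rose by 1.03 (adjusted p = 0.000847), Cntnap1, an adhesion protein of the paranode, by 0.69 (adjusted p = 0.00392) and Adam23, a receptor of Lgi1, by 0.40 (adjusted p = 0.0386). Among HCN channels, which pass a depolarising current on hyperpolarisation, Hcn2 rose by 0.97 (adjusted p = 0.0364), whereas Hcn3 and Hcn4 differed by -0.97 and -0.82 and did not pass (adjusted p = 0.0682 and 0.0743). Of 9 receptors and regulators of the G protein-gated rectifiers, Gnb5 rose by 0.55 (adjusted p = 0.0121), and Rgs9 and Kctd12b fell by 1.38 and 0.71 (adjusted p = 0.0108 and 0.0204). The GABA-B receptor genes Gabbr1 and Gabbr2 differed by -0.02 and -0.12 and did not pass.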

How the data were processed

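The authors deposited log2 expression values, 1 per array row. Per the submitters' processing notes, their tools include RMA and Affymetrix Power Tools and their build is mm9; versions and filters are not stated in the sources used here. Total RNA was depleted of ribosomal RNA before labelling, per the labels' protocols. The values were used as deposited. Of 23750 rows, 18463 have 1 gene symbol in the array annotation, 1799 several and 3488 none. For a gene with several rows the highest-mean row was kept, which left 17858 genes. All 88 Kcn genes have 1 row and a RefSeq entry (GRCm38.p6), which changed 0 symbols. Some other Kcn genes are not reported here.

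Age was fitted across all genes with limma 3.58.1 in R 4.3.3 (lmFit and eBayes, 6wk minus P7, two-sided, no block), with Benjamini-Hochberg adjustment and a threshold of 0.05. Steps were checked on simulated data. Levels are log2 values, and the SE given beside a difference comes from limma. The number of arrays, 3 per age, limits the precision. Named by rule are every called member and 22 measured genes of a fixed set of 26, and the members not in either are given by name or range after their values were seen. The members, lists and tests were chosen with earlier results of these data known. Same-numbered arrays of the P7 and 6wk groups deviated with correlations of 0.274, 0.141 and -0.056. Arrays with different numbers gave -0.285 to 0.206, so the highest value was that of the replicate 1 arrays. The numbers were not taken as pairs in the main fit, and a replicate block that uses them was fitted as an alternative. Alternatives were other scalings, a filter on dim rows, mean rows per gene, a variance trend, array weights, a replicate block and leaving out arrays.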

Additional observations from a re-analysis of the deposited data

How the results depend on the processing

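With all arrays 16 potassium channel genes were higher and 10 lower at 6wk. Centring on array medians gave 20 and 7, against 11.7% and 9.54% of all genes. A further quantile normalization gave 18 and 8, against 12% and 9.97%. Leaving out rows under the first quartile gave 17 and 12 of 72 genes, against 10.5% and 16.6%. The mean of a gene's rows gave 16 and 10, against 8.25% and 13.3%, and a variance trend 18 and 10, against 8.7% and 14.2%. With the replicate block the counts were 17 and 14, against 6.71% and 11.6% of all genes. The 3 genes Kcna10, Kcnd2 and Kcns1 lost their calls in that fit. Another 8 gained one, Kcnab2, Kcnj10 and Kcnj11 as higher and Kcna4, Kcnh7, Kcnj2, Kcnmb2 and Kcnq3 as lower. Array weights gave 28 and 34, against 24.8% and 38.8% of all genes. Their estimation stopped before convergence with a weight of 341 on P7 replicate 3, so these counts rest largely on that array. Leaving out single arrays gave 12 to 20 higher and 4 to 26 lower genes, against 3.82% to 10% and 5.4% to 17.2% of all genes. P7 replicate 1 alone at P7, added after seeing the data, gave 17 higher and 4 lower. The cause of these shifts was not tested. The median difference stayed between -0.16 and -0.01 in the other settings and turned to 0.11 with P7 replicate 1 alone. Each of the 26 called genes kept its direction in every setting in which it was tested. Among named genes that did not pass, Kcna6 turned from -0.37 to 0.14 with P7 replicate 1 alone, and Kcnh2 ran from -0.0875 to 0.26 over the fits that left out an array.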

Other observations

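Replicate 1 had the lowest value at both ages in 38 of the 88 potassium channel genes (43.2%), against 19.6% of all genes, and 4 of these genes were called. The pattern was noticed after the values were seen. Kcnj14, an inward rectifier, read 5.86 in P7 replicate 1 and 6.10 in 6wk replicate 1, but 6.71 to 7.50 in the other P7 arrays and 7.54 to 7.74 in the other 6wk arrays. Kcnh5, an EAG pore, read 7.37 and 6.07 in the replicate 1 arrays, but 8.05 to 8.70 and 7.79 to 7.92 in the others. Without P7 replicate 2 the age difference moved from 0.44 to 0.84 for Kcnj14 and from -0.78 to -0.46 for Kcnh5. Kcnc2 read 7.39 and 7.12 in the replicate 1 arrays and 8.43 to 9.39 and 8.09 to 8.39 in the others. Markers of monoamine neurons averaged 6.66 and 6.83 in the replicate 1 arrays, 9.12 to 9.70 in the other P7 arrays and 7.18 to 7.58 in the other 6wk arrays, and their part in this pattern was not tested.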
